A study of Homo sapiens with 12 samples.

Results

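Gene deserts are long stretches of chromosome with no protein-coding gene, and the regions described here are the H3K27ac peak regions of RPMI 8226 cells that lie in them. Peaks of 12 libraries on chromosomes 1 to 22 and X were merged into 103542 union regions, and the 43630 that held a peak in 6 or more libraries are called consensus regions. The 3964 of these (9.09%) that lay more than 100 kb from the span of any RefSeq protein-coding gene are the desert regions. The nearest to that limit lay 100013 bp from a gene, and the consensus region just outside it lay 99955 bp away. H3K27ac was profiled by CUT&RUN, in which a nuclease tethered to an antibody releases the marked DNA, from 100000 cells per assay. RPMI 8226 is an established multiple myeloma cell line, a malignant plasma cell line grown in suspension. The 4 groups of 3 libraries were scramble control cells under DMSO, scramble cells under 10 µM dexamethasone, CEBPB knockout cells under DMSO, and CEBPB knockout cells under 10 µM dexamethasone, all treated for 2 h. Neither the clonality of the knockout line nor the culture behind each library is stated in the labels. The p-values therefore measure the spread between these libraries, which can be technical.

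Acetylation of lysine 27 on histone H3 marks active promoters and enhancers. Enhancers can act on genes far away, and deserts beside developmental regulators and cell adhesion genes are known to hold many of them, together with promoters of long non-coding RNAs. C/EBPβ, the product of CEBPB, is a leucine zipper transcription factor that binds DNA at palindromic elements close to TTGCNNAA and is known for its roles in inflammation and in myeloma growth. Dexamethasone is a synthetic glucocorticoid used to treat myeloma, and its receptor binds enhancers at elements made of inverted half-sites.

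The desert regions that carry a promoter are the ones whose sequence can be read from the RefSeq promoter table (GRCh38.p14, windows from 250 bases before to 50 after a start). These windows matched 161 desert regions, through 186 windows. The 5 shown were chosen from those 161 by their values. LOC107984778 and LINC01249 lie in desert regions that were lower in knockout cells, and LINC00900 and LOC107986855 in ones that were higher. LOC124905015 lies in a region whose drug response differed between genotypes. The 5 are not a ranking over all 161. All are printed 5′ to 3′ on the minus strand, with the C/EBP element TTGCNNAA, searched on both strands, in capitals.
LOC107984778: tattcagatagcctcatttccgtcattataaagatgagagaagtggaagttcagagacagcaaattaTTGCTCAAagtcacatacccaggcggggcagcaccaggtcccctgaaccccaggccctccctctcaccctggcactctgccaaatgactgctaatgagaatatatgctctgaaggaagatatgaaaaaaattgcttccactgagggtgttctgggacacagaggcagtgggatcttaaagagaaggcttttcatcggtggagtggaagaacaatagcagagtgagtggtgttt
LINC01249: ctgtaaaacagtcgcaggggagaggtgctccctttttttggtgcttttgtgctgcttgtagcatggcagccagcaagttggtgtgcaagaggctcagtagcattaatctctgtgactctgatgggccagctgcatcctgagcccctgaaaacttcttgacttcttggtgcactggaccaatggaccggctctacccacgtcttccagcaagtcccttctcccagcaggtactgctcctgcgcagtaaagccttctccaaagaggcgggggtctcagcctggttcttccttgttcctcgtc
LINC00900: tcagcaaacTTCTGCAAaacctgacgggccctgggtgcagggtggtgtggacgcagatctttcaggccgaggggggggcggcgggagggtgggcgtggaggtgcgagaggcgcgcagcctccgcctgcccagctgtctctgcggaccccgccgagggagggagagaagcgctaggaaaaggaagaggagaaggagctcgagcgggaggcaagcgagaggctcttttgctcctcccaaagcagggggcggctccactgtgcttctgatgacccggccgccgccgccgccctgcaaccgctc
LOC107986855: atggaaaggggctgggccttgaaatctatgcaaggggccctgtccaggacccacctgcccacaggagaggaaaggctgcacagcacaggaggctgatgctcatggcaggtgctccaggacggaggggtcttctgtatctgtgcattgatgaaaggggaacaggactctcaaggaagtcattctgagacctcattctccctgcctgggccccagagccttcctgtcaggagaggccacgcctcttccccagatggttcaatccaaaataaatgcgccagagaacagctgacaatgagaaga
LOC124905015: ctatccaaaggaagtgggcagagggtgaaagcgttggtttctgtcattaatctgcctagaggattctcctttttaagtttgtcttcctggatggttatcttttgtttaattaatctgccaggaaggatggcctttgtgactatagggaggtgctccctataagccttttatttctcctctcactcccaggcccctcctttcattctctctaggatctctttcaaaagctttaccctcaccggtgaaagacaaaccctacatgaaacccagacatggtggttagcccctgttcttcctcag
The window of LOC107984778, at chr15:91469656-91469955, held 1 C/EBP element, and so did that of LINC00900, at chr11:115760151-115760450. The windows of LINC01249 (chr2:4656173-4656472), LOC107986855 (chr7:142469384-142469683, inside the T cell receptor beta locus) and LOC124905015 (chr21:35227126-35227425) held none. None of the 5 held a glucocorticoid receptor element, searched on both strands as GNACA and TGTNC with 3 bases between. Of the 186 windows in desert regions 17.2% held the C/EBP element, against 10.4% of all 34961 windows of the table on these chromosomes, and 0.538% held the glucocorticoid receptor element, against 0.392% of all windows. The windows in desert regions are those of long non-coding RNAs, while all windows were not limited to that gene type. The sets were not matched for gene type or GC content, very few windows held the glucocorticoid receptor element, and the shares were not tested. GC content ran from 45.3% in the LOC124905015 window to 68.0% in the LINC00900 window.

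Each library had between 41164 and 56421 peaks on these chromosomes, which covered 48.0 to 66.4 Mb. The peak lists hold no read counts, so the depth behind each value is unknown. Of the 10 plasma cell and myeloma markers, 9 had a peak over the gene in all 12 libraries, among them SDC1, CD38, TNFRSF17 and IRF4. The exception was SLAMF7, with no peak in any of the 6 scramble libraries and a peak in 2 of 3 knockout DMSO and 3 of 3 knockout dexamethasone libraries. Of the markers of other cell types, 3 of 5 B cell genes (PAX5, CR2 and BACH2), 1 of 5 T cell genes (CD5), 2 of 5 myeloid genes (CSF1R and ITGAM) and 4 of 5 stromal and epithelial genes (COL1A1, PDGFRB, EPCAM and KRT18) had a peak in all 12 libraries. MS4A1 of the B cell list, CD3E and CD3G of the T cell list, LYZ of the myeloid list and COL1A2 of the stromal list had a peak in 0 of 12. The T cell marker CD3D had a peak in 4 of 6 scramble libraries and 1 of 6 knockout libraries, and the myeloid marker CD14 in 6 of 6 and 2 of 6. The CEBPB gene itself had a peak in all 12 libraries, which does not check the knockout, since H3K27ac does not measure the protein or the edit.

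Desert regions were narrow and scattered. Their median width was 1581.5 bp, within a range of 303 to 12019 bp, against 1839 bp over all consensus regions. The median distance to the nearest coding gene was 234 kb, 1865 regions lay more than 250 kb from one, and 246 lay more than 1000 kb from one. Together they spanned 7.34 Mb. Of the 3964 regions 1718 (43.3%) had a peak in all 12 libraries and 901 (22.7%) in exactly 6, the fewest the rule allows. Among consensus regions within 1 kb of an end of a coding gene, called gene ends here, 83.2% were in all 12 libraries and 3.81% in exactly 6. Inside genes the shares were 44.9% and 15.8%, and between genes, up to 100 kb away, 52.4% and 13.0%. These shares are descriptions and were not tested against each other.

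**Figure D1:**
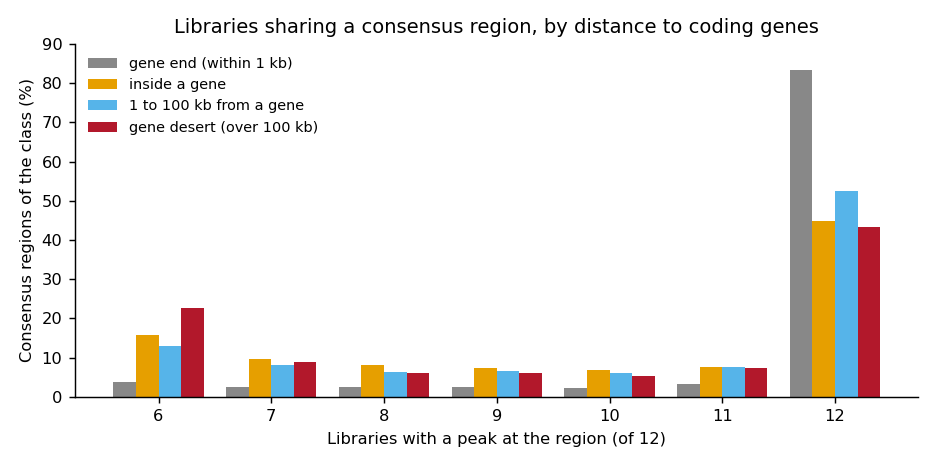
Share of consensus regions (y axis, %) by the number of libraries with a peak at the region (x axis, 6 to 12), for desert regions and the 3 other distance classes. Desert regions have 22.7% at exactly 6 libraries and 43.3% at all 12, and gene ends have 83.2% at all 12.

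Within a library, the peaks at desert regions were weaker and narrower than those at gene ends. Taking each library's median of the authors' fold enrichment, desert peaks reached 3.85 ± 0.0974 (SD, n = 12), gene-end peaks 4.67 ± 0.214, peaks inside genes 3.38 ± 0.0880 and peaks between genes 3.72 ± 0.0904. The desert median was lower than that of gene ends by 0.821 and higher than those inside and between genes by 0.473 and 0.131, in 12 of 12 libraries each time (exact sign-flip test, two-sided, adjusted p = 0.000586 for each over 6 comparisons, from the smallest p that 4096 sign patterns allow, 0.000488). Median peak width was 911 ± 45.8 bp in deserts, 1362 ± 38.9 bp at gene ends, 1011 ± 40.4 bp inside genes and 947 ± 36.5 bp between genes. Desert peaks were narrower than gene-end and gene-body peaks in 12 of 12 libraries (exact sign-flip test, adjusted p = 0.000586) and narrower than those between genes in 11 of 12 (exact sign-flip test, adjusted p = 0.000977).

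Some desert peaks were nevertheless tall. The highest mean fold enrichments, all in regions with no call in the knockout comparison, were 12.2 at chr5:85663055-85663994 between EDIL3 and COX7C, 12.1 at chr3:153506250-153507148 in LINC02006, and 12.0 at chr5:104079679-104081105, which holds the promoter of the long non-coding RNA NIHCOLE. The widest desert region, of 12019 bp, was chr14:105680035-105692053 in the immunoglobulin heavy chain locus, whose rearranged gene plasma cells transcribe heavily. Its peaks covered 7223 to 8197 bp in the 6 scramble libraries and 8126 to 9930 bp in the 6 knockout libraries. The limma test on covered length gave a log2 difference of 0.25 (adjusted p = 0.0032), and fold enrichment, tested in its place, a difference of -0.02. The 5 regions farthest from any coding gene lay together at the pericentromere of chromosome 22, 4566 to 4893 kb from OR11H1.

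Knockout against scramble gave the most calls at desert regions. Covered length, the bases of a region under a peak, was tested at all 43630 consensus regions with limma on log2(bp + 200). Averaged over treatments, 458 desert regions were higher and 797 lower in knockout cells at an adjusted p under 0.05, which is 31.7% of the 3964. The background is 16.4% of all consensus regions called, 8.24% higher and 8.12% lower. The share called was 7.76% at gene ends, 17.4% inside genes and 18.5% between genes. Part of this follows from the rule: a region with peaks in 1 genotype alone enters the consensus through that genotype and had to differ, and 487 of the 901 regions in exactly 6 libraries were called lower and 182 higher. Among regions with a peak in all 12 libraries, 77 desert regions were higher and 95 lower, 10.0% of 1718, against 5.10% of gene ends, 7.31% inside genes and 7.36% between genes. Among those with a peak in at least 1 library of each genotype, 299 desert regions were higher and 331 lower, 18.9% of 3339, against 6.47%, 11.4% and 13.3%. Asking for a peak in 9 or more libraries left 81 higher and 115 lower desert regions. No share over all consensus regions is given for that limit, so these counts have no background. The differences between the shares above were not tested.

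Each treatment was also compared on its own. Under DMSO 282 desert regions were higher and 617 lower in knockout cells, against a background of 4.97% higher and 5.76% lower. Under dexamethasone 345 were higher and 633 lower, against 5.67% and 6%. Among regions with a peak in 9 or more libraries 21 were higher and 35 lower under DMSO, and 26 higher and 36 lower under dexamethasone. A background for that limit is not given. The comparisons under DMSO and under dexamethasone use different libraries. Of the regions lower under DMSO, 541 were also lower under dexamethasone (87.7% of the 617 and 85.5% of the 633). Of the regions higher under DMSO, 222 were higher under dexamethasone (78.7% of the 282 and 64.3% of the 345), and 1 region lower under DMSO was higher under dexamethasone. Over all consensus regions the shares were 80.3% and 77.1% for lower regions and 72.3% and 63.3% for higher ones.

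Presence of a peak was also counted. These regions passed the 6-library rule through 1 genotype alone, which is why they had to differ, and the counts are a description. A peak was found in all 6 scramble libraries and in 0 of 6 knockout libraries at 466 desert regions (11.8%, background 3.65%), and in all 6 knockout and 0 of 6 scramble libraries at 159 (4.01%, background 2.35%). Among regions with a peak in 9 or more libraries both counts are 0 by construction. Under DMSO, 3 libraries against 3, 532 were lost and 213 gained (background 4.5% and 3.39%), and under dexamethasone 560 were lost and 268 gained (background 4.9% and 4.27%). Among regions with a peak in 9 or more libraries these counts were 4 lost and 5 gained under DMSO and 9 lost and 7 gained under dexamethasone. Their background at that limit is not given. The mean Jaccard index, the number of desert regions with a peak in both of a pair of libraries over the number with a peak in either, was 0.850 within a group, 0.840 between treatments of a genotype and 0.640 between genotypes. At gene ends the 3 values were 0.945, 0.943 and 0.921. Inside genes they were 0.807, 0.7985 and 0.703, and between genes 0.848, 0.840 and 0.745, so the index was lower between genotypes in these classes too.

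**Figure D2:**
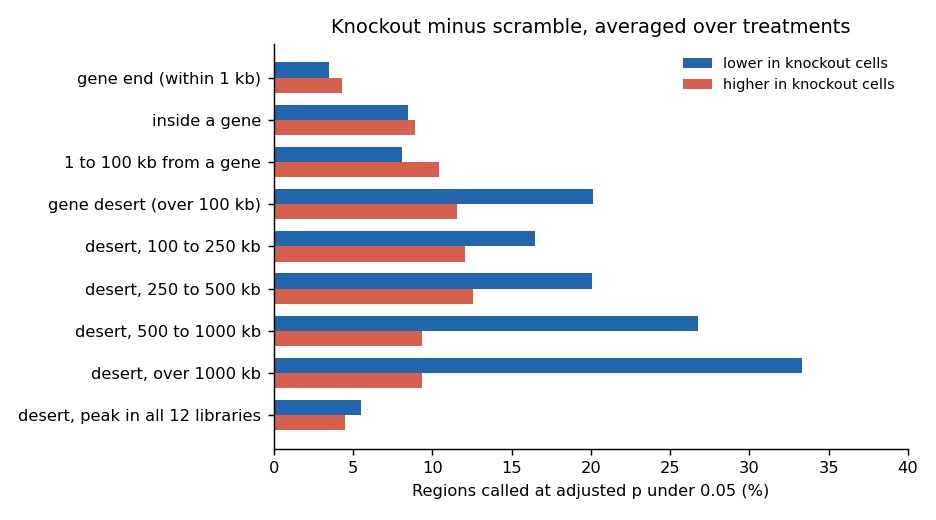
Share of regions (x axis, %) called lower (blue) or higher (red) in knockout cells at an adjusted p under 0.05, by distance class, by distance within deserts, and for desert regions with a peak in all 12 libraries. Lower desert regions run from 16.5% at 100 to 250 kb from a gene to 33.3% beyond 1000 kb, and make up 5.53% of those in all 12 libraries.

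Knockout libraries also had a smaller share of their covered length in desert regions, as the 6-library rule selects them. Desert regions took 6.80% ± 0.139 of covered length in scramble DMSO libraries, 7.08% ± 0.224 in scramble dexamethasone, 6.12% ± 0.177 in knockout DMSO and 6.43% ± 0.163 in knockout dexamethasone libraries (SD, n = 3 each). The 6 scramble libraries lay between 6.64% and 7.27% and the 6 knockout libraries between 5.94% and 6.54%, so the genotypes did not overlap. The knockout difference was -0.667 percentage points (exact permutation within treatment, two-sided, p = 0.005, the smallest that 400 arrangements allow, adjusted p = 0.04 over 8 tests). It was -0.621 (exact permutation, adjusted p = 0.06) without knockout dexamethasone replicate 2, and 0.0543, higher in knockout cells, over regions with a peak in 9 or more libraries. Regions that the 6-library rule admitted through 1 genotype alone enter this share, 466 through scramble cells and 159 through knockout cells. They also enter the number of regions given next. Neither test is independent of the rule, so both differences are descriptions. The number of desert regions with a peak was 3376 ± 163, 3250 ± 184, 3043 ± 133 and 2992 ± 106 in the same order of groups, a knockout difference of -296 that did not pass adjustment (exact permutation, p = 0.015, adjusted p = 0.06). The share of covered length was 0.296 percentage points higher under dexamethasone (exact permutation, p = 0.03, adjusted p = 0.08), and without scramble dexamethasone replicate 1 the difference was 0.357 (exact permutation, adjusted p = 0.04). It turned to -0.0997 with no filter on regions (exact permutation, adjusted p = 0.874) and to -0.0841 with equal covered length in each library (exact permutation, adjusted p = 0.886).

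The share of desert regions lower in knockout cells differed with distance. It was 16.5% at 100 to 250 kb from a coding gene (2099 regions), 20.1% at 250 to 500 kb (957), 26.7% at 500 to 1000 kb (662) and 33.3% beyond 1000 kb (246). The share called higher was 12.1%, 12.5%, 9.37% and 9.35%. By chromosome, chromosome 16 had 29 of 95 desert regions lower (30.5%, against 6.76% of its other consensus regions), chromosome 4 had 64 of 217 lower (29.5%, against 11.8%), chromosome 11 had 39 of 138 lower (28.3%, against 5.95%) and chromosome 7 had 71 of 253 lower (28.1%, against 11.9%). Chromosome 22 had 0 of 73 lower, against 4.42% of its other consensus regions, and chromosome 18 had 27 of 113 higher (23.9%, against 17.3%). These shares were not tested, and neighbouring regions are not independent.

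The desert regions with the largest knockout differences were present in 1 genotype and listed at 0 in the other. At such regions the fitted log2 difference depends on the offset of 200 bp, so covered lengths are given. A region with a peak in the 6 libraries of 1 genotype passed the 6-library rule through that genotype and had to differ, so its values are a description, with no test. At chr12:30056825-30065083, between TMTC1 and IPO8, peaks covered 5561, 5758 and 6024 bp in scramble DMSO libraries and 4462, 4080 and 6583 bp in scramble dexamethasone libraries, and 0 bp in all 6 knockout libraries. At chr3:43996023-43999574, 262 kb from the lipid droplet gene ABHD5, the 6 scramble libraries held 3475, 3379, 3189, 3437, 3330 and 3283 bp and the knockout libraries 0 bp. Neither region's groups overlapped between genotypes. At chrX:81811189-81814623, between SH3BGRL and POU3F4, a gene for a POU-domain transcription factor, the scramble libraries held 2387 to 3384 bp and the knockout libraries 0 bp. At chr7:67986685-67994607, 698 kb from SPDYE21 and 1604 kb from AUTS2, the scramble libraries held 4454 to 7894 bp, 5 knockout libraries held 0 bp and knockout dexamethasone replicate 2 held 625 bp (log2 difference -4.53 ± 0.33 SE). In place of covered length, fold enrichment gave a log2 difference of -0.47 there (limma, adjusted p = 0.34).

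Among the regions higher in knockout cells, a cluster of 3 at chr11:115758195-115776336 had CADM1, a cell adhesion gene, as its nearest gene, and its first and last regions are given. At chr11:115772786-115776336, 268 kb from CADM1, the scramble libraries held 0 bp, the knockout DMSO libraries 3395, 2430 and 3003 bp, and the knockout dexamethasone libraries 3019, 3531 and 3243 bp. At chr11:115758195-115761987, which holds the LINC00900 promoter printed above, the scramble libraries held 0 bp and the knockout libraries 2305, 2517, 3584, 3555, 2364 and 2759 bp. At chr5:25968940-25971371, between the cadherin genes CDH10 and CDH9, the scramble libraries held 0 bp and the knockout libraries 1964 to 2432 bp. At chr8:110916035-110919234, between KCNV1 and CSMD3, 5 knockout libraries held 2805 to 3137 bp, knockout dexamethasone replicate 3 held 802 bp, and the scramble libraries held 0 bp. The markers SLAMF7, CD3D and CD14 also differed between genotypes in their peaks, as given above, and their part in these differences was not tested.

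Some runs of neighbouring desert regions were lower together. Chained at gaps of up to 50 kb, the desert regions formed 1951 clusters, of which 1184 were single regions, 393 held 3 or more and 165 held 5 or more (1275 regions). Other consensus regions were not chained, so the counts of clusters have no background. Of the 393 clusters with 3 or more regions, 29 had every region lower in knockout cells (142 regions) and 5 had every region higher (18 regions). The longest of these was a cluster at chr6:21785127-22063751 that overlaps CASC15, a long non-coding RNA gene: all 16 desert regions of the cluster were lower. Their summed covered length was 24.4, 18.8 and 19.6 kb in scramble DMSO libraries and 20.8, 20.8 and 21.8 kb in scramble dexamethasone libraries, and 0 kb in each of the 6 knockout libraries. All 16 thus passed the 6-library rule through scramble cells alone and had to differ. Between SPDYE21 and AUTS2, a gene of neural development, a cluster of 11 at chr7:68073424-68257037 (784 kb from SPDYE21 and 1341 kb from AUTS2) and a cluster of 8 at chr7:67924185-68021243 (635 kb and 1577 kb) were lower throughout. The first held 11.3 to 14.4 kb in scramble and 1.44 to 3.68 kb in knockout libraries. A cluster of 10 between OTOL1 and SI at chr3:163654790-163832428 held 10.4 to 18.5 kb in scramble and 0 to 1.76 kb in knockout libraries. No group overlapped between genotypes in any of these clusters, which were picked for their calls and so are descriptions.

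Of the 5 clusters with the most desert regions, 2 had most of their regions lower in knockout cells. The cluster of 19 at chr5:30020305-30202520 lay between LOC124901178, 1091 kb away, and the cadherin gene CDH6, 991 kb away. It had 17 regions lower, and its summed covered length was 22.5 to 38.5 kb in scramble and 3.25 to 5.20 kb in knockout libraries. The cluster of 19 between KIRREL3 and ETS1, which encodes a lymphoid transcription factor, at chr11:127781943-128087059 had 16 regions lower, with 19.2 to 29.1 kb in scramble and 1.78 to 2.66 kb in knockout libraries. Beside MAF, a transcription factor gene that is an oncogene in myeloma, 19 regions at chr16:79713442-79932568, over the long non-coding RNAs MAFTRR and LINC01229, had 0 calls and overlapping ranges of 33.4 to 38.5 kb and 31.3 to 42.3 kb. The largest cluster, of 27 regions between ZNF254 and UQCRFS1 at chr19:28393583-28633929, had 1 region higher (32.3 to 45.1 kb in scramble, 39.7 to 45.6 kb in knockout). The cluster of 23 between TLE3 and UACA at chr15:70213404-70530834 also had 1 region higher (27.2 to 34.1 kb and 28.5 to 41.8 kb).

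**Figure D3:**
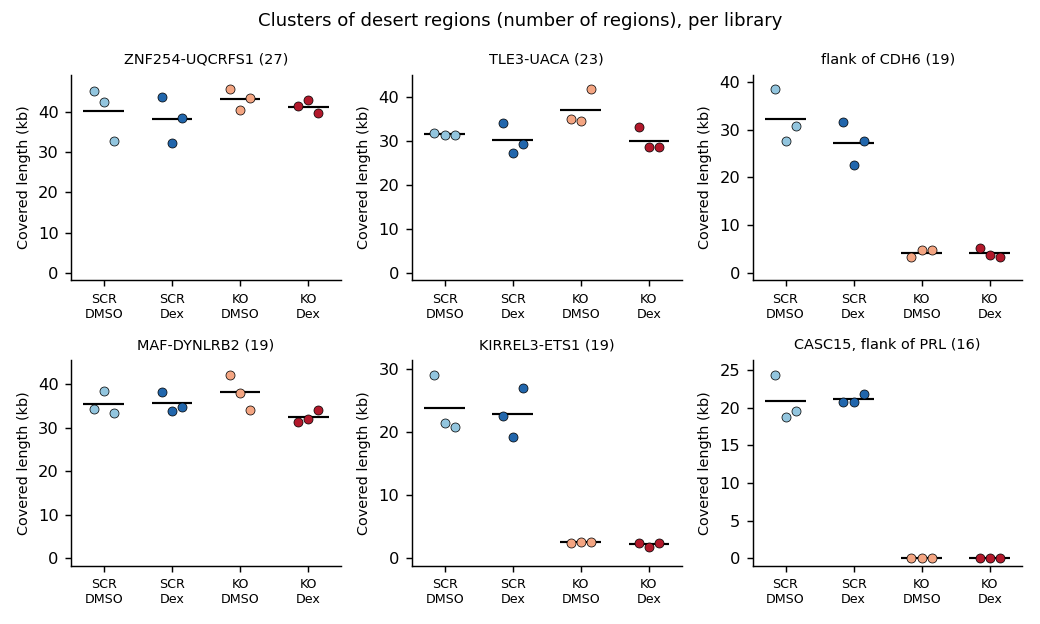
Summed covered length (y axis, kb) of the desert regions of 6 clusters, with 1 point per library and a line at each group's mean, in scramble (SCR) and knockout (KO) cells under DMSO or dexamethasone (Dex). The CDH6, ETS1 and CASC15 clusters do not overlap between genotypes, and the ZNF254, TLE3 and MAF clusters do.

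The desert beside CEBPB itself held 5 regions on the PTPN1 side, 145 to 184 kb from the gene, and 3 were lower in knockout cells. The largest difference was at chr20:50349329-50351180, 157 kb from CEBPB in LOC105372657: 694, 738 and 646 bp in scramble DMSO, 1836, 1783 and 1638 bp in scramble dexamethasone, and 0 bp in all 6 knockout libraries, so that it passed the 6-library rule through scramble cells alone. The scramble groups did not overlap, and the drug difference there was 1.21 on the log2 scale (adjusted p = 0.046). That drug call ended when any 1 of the 12 libraries was left out (adjusted p = 0.059 to 0.11), with the replicate number as a block (adjusted p = 0.16), and fold enrichment gave -0.25. At chr20:50346057-50347014, 5 of 6 knockout libraries held 0 bp and knockout dexamethasone replicate 2 held 739 bp, against 527 to 882 bp in scramble libraries. The 6 scramble libraries met the 6-library rule by themselves there, so the log2 difference of -1.79 ± 0.37 SE is a description. At chr20:50338121-50340277 the scramble libraries held 1511 to 2014 bp and the knockout libraries 912 to 1407 bp (log2 difference -0.50, adjusted p = 0.0078), with no call by fold enrichment (-0.07, adjusted p = 0.43). The other 2, at chr20:50369319-50370132 and chr20:50376562-50377741, gave -0.27 (adjusted p = 0.21) and -0.26 (adjusted p = 0.18). Over the whole of chromosome 20, 24 of 89 desert regions were lower in knockout cells (26.97%) and 8 higher (8.989%). Of its other consensus regions 11.22% were lower and 4.696% higher. The 3 of 5 beside CEBPB were not tested against these shares.

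**Figure D4:**
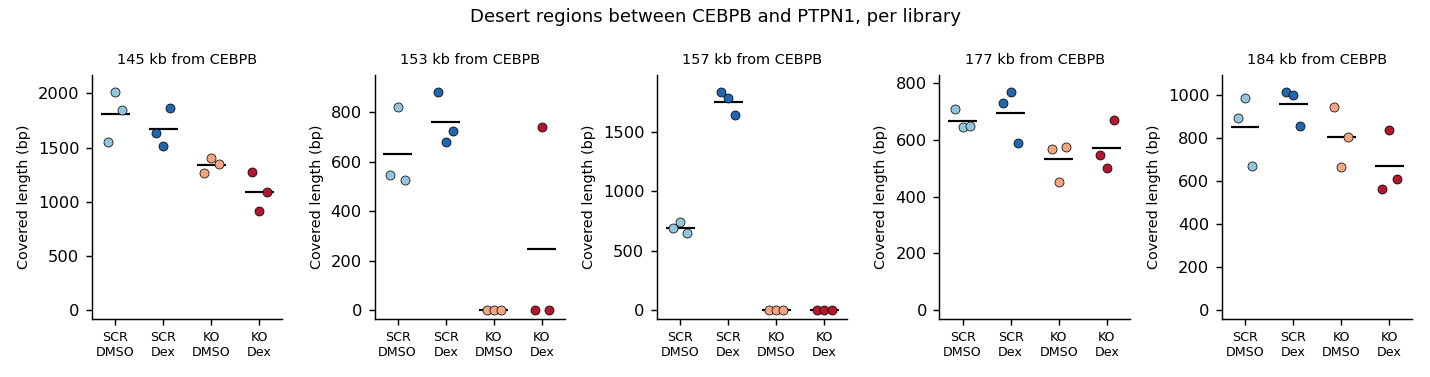
Covered length (y axis, bp) of the 5 desert regions between CEBPB and PTPN1, with 1 point per library and a line at each group's mean. At 157 kb from CEBPB all 6 knockout libraries are at 0 bp and the scramble dexamethasone libraries lie at 1638 to 1836 bp, above the scramble DMSO libraries at 646 to 738 bp.

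Dexamethasone moved few desert regions. In scramble cells 12 were higher and 7 lower under the drug, against a background of 0.254% of all consensus regions called higher and 0.0963% lower (0.351% in all). In knockout cells 11 were higher and 7 lower (background 0.172% and 0.0802%, 0.252% in all). Averaged over genotypes 16 were higher and 6 lower (background 0.325% and 0.094%, 0.419% in all). Leaving out 1 library gave 6 to 15 higher and 5 to 17 lower in scramble cells (6 higher without scramble DMSO replicate 3, 7 higher without scramble dexamethasone replicate 3, 17 lower without scramble dexamethasone replicate 1 and 12 lower without its replicate 2). In knockout cells it gave 17 higher without knockout DMSO replicate 1, and averaged over genotypes 10 higher without knockout dexamethasone replicate 2 and 14 lower without scramble dexamethasone replicate 1. Fitted to the groups compared alone, 1 was higher and 1 lower in scramble cells and 4 higher and 4 lower in knockout cells. Of the 12 and 11 higher regions, 5 were shared between the genotypes, whose libraries differ (41.7% and 45.5%), and 0 of the 7 and 7 lower regions were shared. Over all consensus regions the shares were 36% and 53.3% for higher regions and 7.14% and 8.57% for lower ones. At 6 regions a peak was present in all 6 dexamethasone libraries and in 0 of 6 DMSO libraries (0.151%, background 0.0848%), and 0 regions showed the reverse (background 0.016%). With 3 libraries against 3, 20 were gained and 25 lost in scramble cells (background 0.394% and 0.637%), and 15 gained and 20 lost in knockout cells (background 0.305% and 0.596%).

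The 6 regions gained in all dexamethasone libraries passed the 6-library rule through those libraries alone, and 0 regions were gained among those with a peak in 9 or more libraries, so their values are a description, with no test. One of them, chr8:60025775-60027274, lay 907 kb from TOX, which encodes a DNA-binding factor of lymphocyte development, and 158 kb from CA8. It held 0 bp in all 6 DMSO libraries, 1190, 1293 and 1134 bp in scramble dexamethasone libraries, and 1325, 1213 and 1455 bp in knockout dexamethasone libraries. At chr21:25296063-25299075, between NCAM2 and MRPL39, the DMSO libraries held 0 bp, the scramble dexamethasone libraries 3002, 1104 and 2829 bp and the knockout dexamethasone libraries 795, 405 and 1060 bp. In the desert next to COL4A1, a basement membrane collagen gene, chr13:110023395-110024639 in LINC03082 held 0 bp under DMSO, 795, 818 and 521 bp in scramble and 386, 800 and 1245 bp in knockout dexamethasone libraries. The other 3 gained regions were chr6:2560919-2561809 beside MYLK4 (364 to 767 bp under dexamethasone), chr18:78196323-78196821 between GALR1 and SALL3 (297 to 481 bp) and chr2:5940853-5943090 in SILC1, 239 kb from the transcription factor gene SOX11 (252 to 2090 bp). In those 3, all 6 DMSO libraries held 0 bp.

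**Figure D5:**
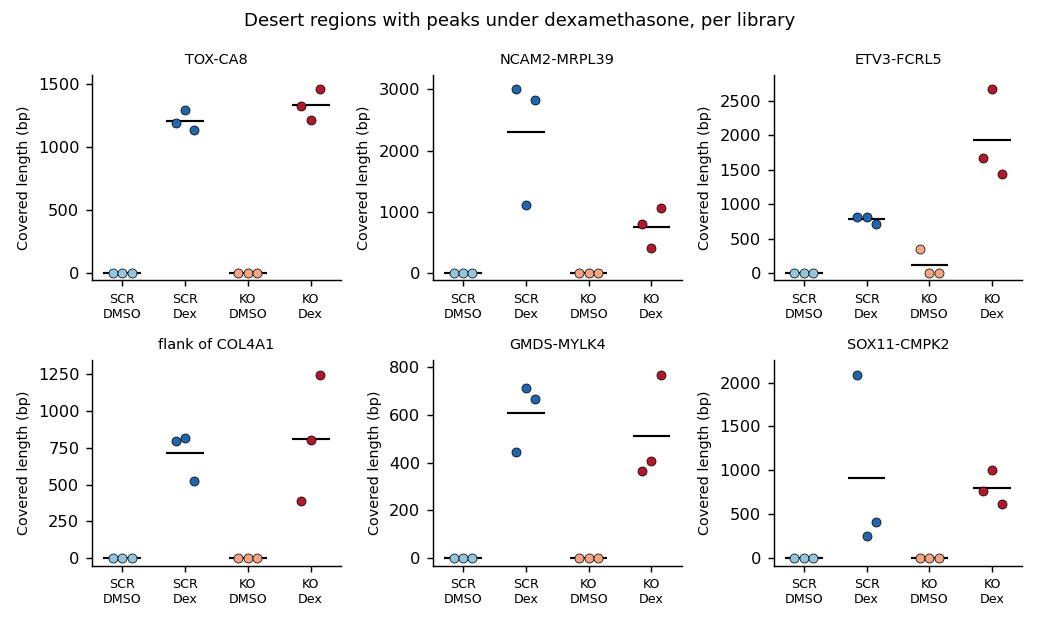
Covered length (y axis, bp) of 6 desert regions with more covered bases under dexamethasone, with 1 point per library and a line at each group's mean. All 6 DMSO libraries are at 0 bp in 5 of the panels, and in the ETV3-FCRL5 panel 1 knockout DMSO library is at 353 bp.

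Other desert regions held more covered bases under the drug from a low level. At chr1:157284077-157286919, between ETV3 and the B-lineage receptor gene FCRL5, 226 kb from the latter, the scramble libraries held 0, 0 and 0 bp under DMSO and 819, 818 and 706 bp under dexamethasone, and the knockout libraries 353, 0 and 0 bp and 1669, 2667 and 1435 bp (averaged log2 difference 2.63 ± 0.27 SE). Its 7 libraries with a peak include all 6 under dexamethasone, so it too passed the rule through them. At chr12:59030232-59031738 in LRIG3-DT the averaged difference was 2.32 (adjusted p = 0.022), a call that ended when any of 7 libraries was left out (adjusted p = 0.052 to 0.069). Near SGK1, a kinase gene that glucocorticoids are known to induce, chr6:134562736-134563661 held 0 bp in knockout DMSO libraries and 515, 630 and 513 bp in knockout dexamethasone libraries, while scramble libraries held 330 to 822 bp under either treatment (adjusted p = 0.029 in knockout cells, lost when any of 8 libraries was left out, 0.053 to 0.099). At chr16:64211237-64213552, 730 kb from the cadherin gene CDH11, knockout libraries held 0, 0 and 304 bp under DMSO and 1562, 1935 and 2075 bp under dexamethasone (log2 difference 3.25, adjusted p = 0.012), and scramble libraries held 404 to 2227 bp. At chr6:18584805-18588011 in MIR548A1HG, scramble libraries held 0 bp under DMSO and 1601, 308 and 1396 bp under dexamethasone (adjusted p = 0.034, lost when any of 9 libraries was left out, 0.056 to 0.11). The last 3 were called in 1 genotype and not in the other, and their difference of drug responses did not pass the test.

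The desert regions lower under dexamethasone included the following. At chr12:73671188-73672107, between TRHDE and ATXN7L3B, scramble libraries fell from 762, 533 and 652 bp to 0 bp in all 3 (adjusted p = 0.0083), while knockout libraries held 495 to 842 bp under either treatment. At chr2:180359048-180360601, between CWC22 and UBE2E3, scramble libraries held 734, 550 and 505 bp under DMSO and 0 bp under dexamethasone (adjusted p = 0.011), while knockout libraries held 788 to 1488 bp. The difference of drug responses did not pass the test at either region. In knockout cells chr2:187054729-187055782 in CALCRL-AS1 held 859, 509 and 649 bp under DMSO and 0 bp under dexamethasone (adjusted p = 0.014). At chr6:15952806-15957005, between DTNBP1 and MYLIP, scramble libraries fell from 3561, 4146 and 4040 bp to 1168, 1864 and 1796 bp (log2 difference -1.18, adjusted p = 0.043, lost when any of 8 libraries was left out, 0.057 to 0.12). Fold enrichment at that region gave 1.18 on the log2 scale, the opposite direction (adjusted p = 0.012).

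The drug response itself differed between genotypes at 6 desert regions, 3 with a higher and 3 with a lower response in knockout cells (background 0.0458% and 0.0527% of all consensus regions, 0.0986% in all). The count of higher responses was 8 without scramble dexamethasone replicate 1 and 1 without knockout dexamethasone replicate 3. At chr18:39942590-39947382, between LOC105372073 and PIK3C3, peaks covered 4539 to 4737 bp in the 9 libraries of the other groups and 1857, 1620 and 1973 bp in knockout dexamethasone libraries (difference of log2 responses -1.30, adjusted p = 0.0013). Fold enrichment there was 5.00, 5.90 and 4.27 in the latter and 3.07 to 3.63 in the former, and tested in place of covered length it gave a difference of responses of 0.53 that did not pass the test (adjusted p = 0.57). At chr21:35226503-35231720, 177 kb from RUNX1, a gene for a blood cell transcription factor, knockout libraries held 1950, 1858 and 1893 bp under DMSO and 4286, 4449 and 4393 bp under dexamethasone, against 2042 to 2742 bp in scramble libraries (1.13, adjusted p = 0.0036). This region holds the LOC124905015 promoter printed above. At chr1:102120600-102122773, 124 kb from OLFM3, 9 libraries held 1890 to 2086 bp and knockout dexamethasone libraries 854, 789 and 930 bp (-1.02, adjusted p = 0.0077). At chr4:178414935-178416299, between AGA and TENM3, scramble libraries held 974 to 1365 bp, knockout DMSO libraries 807, 798 and 765 bp, and knockout dexamethasone libraries 0 bp (adjusted p = 0.0094). The other 2, chr5:2432680-2435835 beside IRX2 and chr18:72160462-72162160 beside CBLN2, had an adjusted p of 0.047 each, which was lost when any of 10 libraries (0.056 to 0.12) and of 8 libraries (0.066 to 0.13) was left out. Tested on fold enrichment in place of covered length, the difference of responses also had the opposite sign at chr21:35226503-35231720 (-0.14), chr1:102120600-102122773 (0.15) and chr5:2432680-2435835 (-0.07). At chr4:178414935-178416299 it was 0.095 with peaks of −log10 q of at least 2, and at chr5:2432680-2435835 it was -2.13 with equal covered length in each library.

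Long non-coding RNA genes spanned 1354 desert regions (34.2%), against 21.1% of regions at gene ends, 9.16% inside genes and 27.2% between genes. The 161 desert regions with a promoter window were in all 12 libraries in 64.0% of cases, and 21 were higher (13.0%) and 20 lower (12.4%) in knockout cells. Of the 1193 inside a long non-coding RNA span without such a window, 126 were higher (10.6%) and 222 lower (18.6%), and of the 2610 outside such spans 311 were higher (11.9%) and 555 lower (21.3%). Over all consensus regions 8.24% were higher and 8.12% lower. The region of the LOC107984778 promoter, chr15:91469129-91473237, had a knockout log2 difference of -3.67, and that of LINC01249, chr2:4656072-4658219, one of -3.51. Both had a peak in the 6 scramble libraries and in 0 of 6 knockout libraries, so these values are descriptions that depend on the offset.

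Of the 8 desert regions at microRNA genes, MIR148A stayed at 1826 to 2011 bp in all 12 libraries. miR-148a is abundant in plasma cells, and its mature 3p strand at chr7:25949922-25949943, minus strand, is printed with its seed, bases 2 to 8, in capitals.
hsa-miR-148a-3p: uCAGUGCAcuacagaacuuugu
Its region, chr7:25949711-25951897, had a knockout log2 difference of -0.01 (adjusted p = 0.93). The region of MIR513A2, chrX:147225853-147228625, held 462 to 2696 bp in the 6 scramble libraries and 0 bp in the 6 knockout libraries. That of MIR4435-1, chr2:87627580-87630241, held 291 to 2522 bp in scramble libraries, 0 bp in 5 knockout libraries and 1681 bp in knockout dexamethasone replicate 2 (log2 difference -2.59). At both regions the scramble libraries met the 6-library rule by themselves, so these values are descriptions. The other 5, at MIR5087, MIR4437, MIR1207, MIR1299 and MIR646, were not called in the knockout comparison averaged over treatments. Under dexamethasone that of MIR4437 was higher in knockout cells, by a log2 difference of 1.67 (limma, adjusted p = 0.042). Its fold enrichment went the other way, from 7.41 to 7.52 in scramble dexamethasone libraries to 5.13 to 5.63 in knockout dexamethasone libraries. That call was not tried under the alternatives of the closing section.

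The antigen receptor loci, which RefSeq does not list as protein-coding genes, held 42 desert regions, 11 higher in knockout cells (26.2%) and 0 lower. Of all desert regions 11.6% were higher and 20.1% lower. The 13 at the T cell receptor beta locus held 7 of the 11, and none of the 13 was in all 12 libraries. Their summed covered length was 5.48 ± 1.71 kb in scramble DMSO, 2.91 ± 1.13 kb in scramble dexamethasone, 16.0 ± 0.811 kb in knockout DMSO and 15.3 ± 1.53 kb in knockout dexamethasone libraries (SD, n = 3 each). At chr7:142439480-142441705 there, scramble libraries held 0 bp and knockout libraries 1785, 2130, 2226, 741, 1695 and 1519 bp. That region passed the 6-library rule through knockout cells alone and had to differ, so its values are a description. Any region with a peak in all 6 knockout libraries can enter the consensus in this way. The counts called higher at these loci are therefore descriptions too. Of the 7 calls, those at chr7:142482003-142483540 and chr7:142535169-142536445 were each lost when any of 9 libraries was left out (adjusted p = 0.062 to 0.084 and 0.05 to 0.074). At the immunoglobulin loci 1 of 11 regions was higher at the heavy chain, 3 of 14 at kappa and 0 of 3 at lambda, and the difference between loci was not tested. Of the kappa calls, chr2:88865376-88870122 and chr2:88880150-88881148 were each lost when any of 10 libraries was left out (adjusted p = 0.059 to 0.11 and 0.052 to 0.089).

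Desert regions lay beside some gene classes more than other consensus regions did. Genes of a list of 59 cadherins and neural adhesion molecules were the nearest coding gene of 222 desert regions (5.6%, against 0.522% of other consensus regions), and 24 of these were higher and 74 lower in knockout cells (44.1% called, against 31.7% of all desert regions). CDH6 was nearest to 22, of which 17 were lower, and TENM3 to 22, of which 15 were lower. Both genes thus weigh on the share called. Their regions lay 273 to 1128 kb from CDH6 and 452.5 to 1999 kb from TENM3. Genes of a list of 92 developmental transcription factors were nearest to 207 (5.22%, against 0.451%), with 22 higher and 45 lower (32.4% called). Among them ETS1 was nearest to 23, of which 17 were lower, and ID2 to 29. Genes of a plasma cell and myeloma list of 36 were nearest to 76 (1.92%, against 0.529%), with 3 higher and 4 lower (9.21% called). MAF was nearest to 19 of these, MYC, the growth-driving oncogene, to 13 and MEF2C to 10. Of 45 glucocorticoid-induced genes, 12 were nearest to 35 desert regions (0.883%, against 0.504%), 9 of them at CXCR4 and 7 at BTG1, and 1 was higher with dexamethasone. In knockout cells 22.9% of these 35 were called. Genes of the list linked to C/EBPβ were nearest to 5, of which 3 were lower in knockout cells (60% called), with CEBPB the nearest gene of 3 and CSF3R of 2. The nearest gene is a position and not a target, neighbouring regions are not independent, and the shares were not tested.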

How the data were processed

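H3K27ac CUT&RUN peak lists of 12 libraries were analysed. Per the submitters' processing notes the tools were Bowtie2 2.4.2 and MACS3 3.0 with build hg38, and the control and thresholds used for calling are not given in the sources used here. The deposited broad peak files give peak positions, a score, the fold enrichment (a ratio), and the −log10 p and −log10 q of each peak, all as the authors' caller wrote them, per library. The deposited lists reach down to a −log10 q of 0.523. The lists hold no counts, so depth and counting intervals are unknown.

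Peaks were merged and covered length per region was quantile-normalised and tested as log2(bp + 200) with limma 3.58.1 in R 4.3.3 (trend and robust options, all 4 groups, 8 residual degrees of freedom, Benjamini-Hochberg adjustment over 43630 regions, 7 comparisons). Library values were compared by exact permutation within treatment or genotype and by exact sign flips. Other steps used pandas 2.3.3, NumPy 2.4.6, Matplotlib 3.10.9 and SciPy 1.17.1 under Python 3.11.15. limma was tested on simulated data. Gene spans came from RefSeq (GRCh38.p14), 19821 protein-coding genes, without 153 rows on scaffolds. No genome sequence was used, so motifs were searched in RefSeq promoter windows only, in place of the desert regions themselves.

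Regions named are, for each comparison, up to 8 in each direction by log2 difference among those called without overlap of the groups compared (overlap was not asked of averages and of the difference of responses), the 8 of highest mean fold, the 5 widest, the 5 farthest and the 5 largest clusters, of which some are given here. Those at CEBPB, antigen receptor loci, microRNAs, printed promoters and clusters lower throughout were chosen after their values were seen. The desert regions, the gene lists and the markers were chosen with earlier results of these data known. Alternatives tried are given in the closing section.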

Additional observations from a re-analysis of the deposited data

Results flagged for a closer look

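At 6 desert regions the response to dexamethasone differed between scramble and knockout cells by the interaction test (limma, difference of log2 responses, knockout minus scramble). At chr18:39942590-39947382 it was -1.30 (adjusted p = 0.0013), at chr21:35226503-35231720 1.13 (adjusted p = 0.0036), at chr1:102120600-102122773 -1.02 (adjusted p = 0.0077), at chr4:178414935-178416299 -2.20 (adjusted p = 0.0094), at chr5:2432680-2435835 0.83 and at chr18:72160462-72162160 0.89 (adjusted p = 0.047 for each). In the chr5 region the 9 libraries of the other groups held 1284 to 1731 bp and the knockout dexamethasone libraries 3091, 2803 and 2960 bp. In the chr18:72160462-72162160 region scramble libraries held 1458, 1463 and 1493 bp under DMSO and 671, 613 and 699 bp under dexamethasone, and knockout libraries held 1352 to 1640 bp. The value at chr4:178414935-178416299 depends on the offset, since knockout dexamethasone libraries are at 0 bp there.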

How the results depend on the processing

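Each group had 3 libraries and the depth behind the peaks is unknown, and covered length moves when a peak is split or joined. A fixed limit of 6 libraries admits regions of 1 genotype. Peak calling was not repeated. The counts under each alternative below are of desert regions only, with no share over all consensus regions beside them. For the values that changed, the cause was not tested, beyond what each alternative changes by its own construction.

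No filter on regions gave these counts: scramble drug 7 higher and 2 lower, knockout drug 6 higher and 4 lower, averaged drug 8 higher, and by presence scramble drug 45 gained and 80 lost, knockout drug 44 gained and 42 lost. It gave a difference of -0.0997 in percent of covered length in desert regions (drug) with adjusted p = 0.874, 25.6 in median width of peaks at desert regions (drug) with adjusted p = 0.23. A peak in 9 or more libraries gave these counts: scramble drug 2 higher, knockout drug 5 higher, knockout under DMSO 21 higher and 35 lower, knockout under dexamethasone 26 higher and 36 lower, averaged drug 4 higher, averaged knockout 81 higher and 115 lower, and by presence scramble drug 5 gained and 7 lost, knockout drug 4 gained and 9 lost, knockout under DMSO 5 gained and 4 lost, knockout under dexamethasone 7 gained and 9 lost, knockout over both treatments 0 gained and 0 lost, drug over both genotypes 0 gained. It gave a difference of 14.5 in number of desert regions present (knockout) with adjusted p = 0.675, 0.0543 in percent of covered length in desert regions (knockout) with adjusted p = 0.675. Presence as 50% of a region covered gave these counts: scramble drug 4 higher, knockout drug 6 higher, knockout under DMSO 128 higher and 284 lower, knockout under dexamethasone 164 higher and 296 lower, difference of responses 6 higher and 8 lower, averaged drug 8 higher and 15 lower, averaged knockout 224 higher and 405 lower, and by presence scramble drug 5 gained and 10 lost, knockout drug 4 gained and 10 lost, knockout under DMSO 73 gained and 203 lost, knockout under dexamethasone 102 gained and 227 lost, knockout over both treatments 56 gained and 181 lost, drug over both genotypes 2 gained. It gave a difference of -135 in number of desert regions present (knockout) with adjusted p = 0.04, -0.256 in percent of covered length in desert regions (knockout) with adjusted p = 0.19. A limit of 50 kb gave these counts: scramble drug 25 higher, knockout drug 20 higher, knockout under DMSO 436 higher, averaged drug 31 higher and 10 lower, and by presence scramble drug 34 gained and 38 lost, knockout drug 27 gained, knockout under DMSO 329 gained, drug over both genotypes 13 gained. A limit of 250 kb gave these counts: scramble drug 4 higher, knockout drug 4 higher and 3 lower, knockout under DMSO 129 higher and 363 lower, knockout under dexamethasone 161 higher and 378 lower, averaged drug 6 higher, averaged knockout 205 higher and 451 lower, and by presence scramble drug 8 gained and 13 lost, knockout drug 6 gained and 9 lost, knockout under DMSO 102 gained and 323 lost, knockout under dexamethasone 122 gained and 332 lost, knockout over both treatments 74 gained and 288 lost, drug over both genotypes 2 gained. It gave a difference of -219 in number of desert regions present (knockout) with adjusted p = 0.02, -6.67 in median width of peaks at desert regions (knockout) with adjusted p = 0.925.

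A fit to the groups compared alone gave these counts: scramble drug 1 higher and 1 lower, knockout drug 4 higher and 4 lower. With the replicate number as a block, the fit gave these counts: scramble drug 4 higher and 4 lower, knockout drug 6 higher and 4 lower, difference of responses 1 higher and 1 lower, averaged drug 10 higher. Peaks with a −log10 q of at least 2 gave these counts: knockout under dexamethasone 215 higher, difference of responses 7 higher and 8 lower, averaged drug 11 lower, and by presence scramble drug 9 lost, knockout drug 9 lost, drug over both genotypes 1 lost. It gave a difference of 9.17 in number of desert regions present (drug) with adjusted p = 0.955, -166 in number of desert regions present (knockout) with adjusted p = 0.02, -0.00469 in median fold enrichment of peaks at desert regions (drug) with adjusted p = 0.955. An offset of 50 bp gave these counts: difference of responses 8 higher and 6 lower, averaged drug 12 lower. Scaling to each library total gave these counts: difference of responses 1 higher and 1 lower, averaged drug 1 lower. Fold enrichment in place of covered length gave these counts: difference of responses 5 higher and 12 lower, averaged drug 16 lower. limma without its trend and robust options gave these counts: difference of responses 5 higher and 8 lower, averaged drug 13 lower. Equal covered length in each library gave these counts: difference of responses 7 lower, and by presence scramble drug 13 lost, knockout drug 12 lost, drug over both genotypes 1 lost. It gave a difference of 26 in number of desert regions present (drug) with adjusted p = 0.39, -294 in number of desert regions present (knockout) with adjusted p = 0.02, -0.0841 in percent of covered length in desert regions (drug) with adjusted p = 0.886, -0.000345 in median fold enrichment of peaks at desert regions (drug) with adjusted p = 1. No normalization gave these counts: averaged drug 10 lower.

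Over fits that leave out 1 library each, the ranges were knockout drug gained 15 to 41, knockout drug lost 20 to 53, scramble drug gained 20 to 49, scramble drug lost 25 to 84, drug over both genotypes lost 0 to 2, knockout under DMSO gained 213 to 335, averaged drug higher 10 to 19, averaged drug lower 5 to 14, knockout drug higher 9 to 17, scramble drug higher 6 to 15, scramble drug lower 5 to 17, difference of responses higher 1 to 8, median width of peaks at desert regions, drug difference -29.7 to 9.96, number of desert regions present, knockout difference -341 to -250, percent of covered length in desert regions, drug difference 0.247 to 0.357, percent of covered length in desert regions, knockout difference -0.729 to -0.619.

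Signs turned at named regions as follows. With fold enrichment in place of covered length, the dexamethasone in scramble cells contrast gave 1.18 at chr6:15952806-15957005, 0.0345 at chr18:72160462-72162160, -0.25 at chr20:50349329-50351180. With fold enrichment in place of covered length, the dexamethasone in knockout cells contrast gave 0.59 at chr18:39942590-39947382, 0.15 at chr1:102120600-102122773, 0.18 at chr9:117955774-117957724. With fold enrichment in place of covered length, the difference of drug responses contrast gave -0.14 at chr21:35226503-35231720, -0.0727 at chr5:2432680-2435835, 0.53 at chr18:39942590-39947382, 0.15 at chr1:102120600-102122773. With equal covered length, the difference of drug responses contrast gave -2.13 at chr5:2432680-2435835. With peaks of −log10 q at least 2, the difference of drug responses contrast gave 0.095 at chr4:178414935-178416299. With fold enrichment in place of covered length, the dexamethasone averaged over genotypes contrast gave 0.32 at chr18:39942590-39947382, 0.0712 at chr1:102120600-102122773, 0.0869 at chr18:72160462-72162160. With fold enrichment in place of covered length, the knockout averaged over treatments contrast gave -0.24 at chr2:88865376-88870122, -0.0239 at chr14:105680035-105692053.

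The replicate number is not a stated pairing: same-number libraries of different groups had deviations correlated at -0.0245 to 0.0338 (mean 0.00204), and different-number libraries at -0.0353 to 0.0443, so the block counts above describe the fit only. Keeping scaffold genes in the distance, an alternative chosen after seeing the data as were those on clusters, on presence in 6 against 6 libraries and on the regions at CEBPB, antigen receptor loci, microRNAs and promoters, left 3960 desert regions and changed no call count by more than 1.5 times.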

Other observations

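The 5 desert regions farthest from a coding gene lay at chr22:10634572-10635062, chr22:10637014-10637751, chr22:10747425-10748752, chr22:10783282-10784598 and chr22:10960795-10962079, beside the centromere. At chr22:10747425-10748752, in LOC105379418, scramble libraries held 0 bp and knockout libraries 471 to 1323 bp, so that it passed the 6-library rule through knockout cells alone. How reads in repeated sequence were filtered is not given in the sources used here.

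The rule kept 3964 of 10952 desert union regions. Another 3966 had a peak in 1 library, 502 in 5 libraries and 901 in exactly 6, the lowest number kept. Pseudogenes overlapped 193 desert regions (4.87%, against 1.45% at gene ends and 7.24% between genes) and transfer RNA genes 9. None of the annotations searched overlapped 2408 of the 3964 (60.8%).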
